A study of Homo sapiens with 6 samples.

Results

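The miR-193 and miR-365 miRNAs were examined in A549 cells, a human lung adenocarcinoma line, to see how each mature strand is recovered by an antibody against N7-methylguanosine (m7G). The members were the 7 mature miRNAs of this family named hsa-miR-193a-5p, hsa-miR-193a-3p, hsa-miR-193b-5p, hsa-miR-193b-3p, hsa-miR-365a-5p, hsa-miR-365a-3p and hsa-miR-365b-5p, out of 2588 listed. They were picked by name and not by their values, although earlier results of these data were known. The cells carried a doxycycline-inducible shRNA against METTL1, an enzyme that methylates guanosine at N7 in tRNA, and were harvested after 5 days of doxycycline at 200 ng/ml. One group of 3 libraries came from total RNA, and the other group of 3 came from heat-denatured RNA immunoprecipitated with the antibody (m7G-RIP).

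Both groups thus share the knockdown. No libraries from METTL1-proficient cells or with a control antibody were analysed here, METTL1 itself is not a miRNA and was not measured, and the ratio of m7G-RIP to total RNA is not an effect of METTL1. The culture text of the m7G-RIP samples names another line, Caco-2, whereas their titles and cell line labels name A549. The labels do not say whether replicates were separate cultures, so p-values measure the spread between these libraries. Total RNA libraries held from 9155690 to 10753443 counts, and m7G-RIP libraries, which were shallower, from 2649238 to 3106556. Since the amount of recovered RNA is unknown, each level is relative to the other miRNAs of its library.

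A miRNA hairpin is cut into a duplex of a 5p and a 3p strand, of which one is usually kept in the silencing complex while its partner is degraded. The strand's seed, bases 2 to 8, directs target recognition. miR-193 and miR-365 are encoded next to each other in paralogous clusters on chromosomes 16 and 17, and the chromosome 16 cluster is known for its high expression in brown fat. The 3p strands are the better studied ones. miR-193b-3p is known to repress the mRNAs of cyclin D1 and the urokinase PLAU, miR-193a-3p that of the survival factor MCL1, and miR-365-3p that of NKX2-1, a lung lineage transcription factor. Of the 5p strands, miR-193a-5p is known to repress TP73 mRNA, which encodes a relative of p53.

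The mature sequences show how the arms and the paralogs differ. They are given 5′ to 3′ from RefSeq (GRCh38.p14), with the seed in capitals, 5p strands first.
hsa-miR-193b-5p: cGGGGUUUugagggcgagauga
hsa-miR-193a-5p: uGGGUCUUugcgggcgagauga
hsa-miR-365a-5p: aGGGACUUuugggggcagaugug
hsa-miR-365b-5p: aGGGACUUucaggggcagcugu
hsa-miR-193b-3p: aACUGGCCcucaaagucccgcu
hsa-miR-193a-3p: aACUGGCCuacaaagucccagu
hsa-miR-365a-3p: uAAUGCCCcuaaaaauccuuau
hsa-miR-365b-3p: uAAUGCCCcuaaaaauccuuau

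All 4 of the 5p strands start with GG at bases 2 and 3 and hold a GGG, and none of the 3p strands holds a GGG. miR-365a-5p and miR-365b-5p share the seed GGGACUU, and the miR-193a and miR-193b 3p strands share ACUGGCC. The miR-193 5p strands do not share a seed. Counted from base 1 at the 5′ end, miR-193b-5p differs from miR-193a-5p by U1C, U5G, C6U and C11A, so that 18 of 22 bases are identical. miR-193b-3p differs from miR-193a-3p by U9C, A10U, A20G and G21C. miR-365b-5p differs from miR-365a-5p by U10C, G11A and A19C over their first 22 bases. The miR-365a and miR-365b 3p strands are identical, so their reads cannot be assigned to a hairpin. No other listed miRNA with a RefSeq sequence had a member's seed.

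The hairpins carry both strands, shown here in capitals for the miR-193 paralogs, whose strands differ in sequence and are compared with each other (RefSeq, GRCh38.p14, plus strand).
MIR193B: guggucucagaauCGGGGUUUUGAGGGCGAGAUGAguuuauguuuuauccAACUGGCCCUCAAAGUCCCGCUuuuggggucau
MIR193A: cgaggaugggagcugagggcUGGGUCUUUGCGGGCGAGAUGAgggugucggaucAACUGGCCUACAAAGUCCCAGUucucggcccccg

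MIR193B lies at chr16:14303967-14304049, 5235 bases from MIR365A at chr16:14309285-14309371, and both are in introns of the lncRNA MIR193BHG (GENCODE release 44). MIR193A lies at chr17:31559996-31560083, outside other annotated genes of its strand. MIR365B lies at chr17:31575411-31575521, 15327 bases from MIR193A, in an exon of the lncRNA MIR365BHG. The hairpin of MIR4725 ends 52 bases before MIR365B.

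The antibody recovered the strands of these hairpins in opposite directions. The 5p strands were enriched over total RNA and the 3p strands were depleted or near absent. Of the 7 members, 6 passed the filter on low counts and were tested. All 4 of the 5p members were enriched (edgeR quasi-likelihood test, adjusted p under 0.05), where 23.5% of all 620 miRNAs tested were enriched. Both 3p members tested were depleted, where 29.2% of those tested were, although the call of miR-365a-3p was lost with other scalings. The member that was not tested, miR-193a-3p, had at most 2 counts in any m7G-RIP library. The median log2 ratio of m7G-RIP over total RNA was 1.14 for the 5p members and -1.55 for the 2 tested 3p members, beside -0.074 for all miRNAs tested. By arm, the median was -0.134 for all tested 5p names and -0.449 for all tested 3p names. As a share of all counts of a library, the 7 members together made up 0.183% ± 0.0270 in total RNA and 0.573% ± 0.0233 in m7G-RIP (SD, n = 3), with no overlap between groups. These shares use unscaled counts, unlike the log2 ratios. With library size alone the median log2 ratio of all miRNAs tested was 0.48, so a rise in share was not particular to the members. The pooled share also joins strands that moved in opposite directions.

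Levels are given in CPM, counts scaled to a common library size corrected by TMM (trimmed mean of M-values), as means ± SD over 3 libraries. All mature strands are 22 or 23 bases long, so levels are compared between strands without correction for length. How well each sequence is captured in a library was not measured, so comparisons between strands or paralogs are comparisons of counts. In total RNA the order was miR-365a-5p (685 ± 40.8), miR-193b-3p (537 ± 175), miR-365a-3p (515 ± 146), miR-193b-5p (347 ± 23.4), miR-193a-5p (120 ± 4.90), miR-365b-5p (18.6 ± 6.13) and miR-193a-3p (2.30 ± 0.748). Each neighbouring pair among the first 4 had overlapping libraries. In m7G-RIP the order was miR-193b-5p (2392 ± 375), miR-365a-5p (1681 ± 153), miR-365a-3p (305 ± 82.2), miR-193a-5p (221 ± 27.1), miR-193b-3p (106 ± 35.5), miR-365b-5p (37.0 ± 5.38) and miR-193a-3p (0.178 ± 0.309). Among these neighbours, miR-365a-3p and miR-193a-5p had overlapping libraries.

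**Figure D1:**
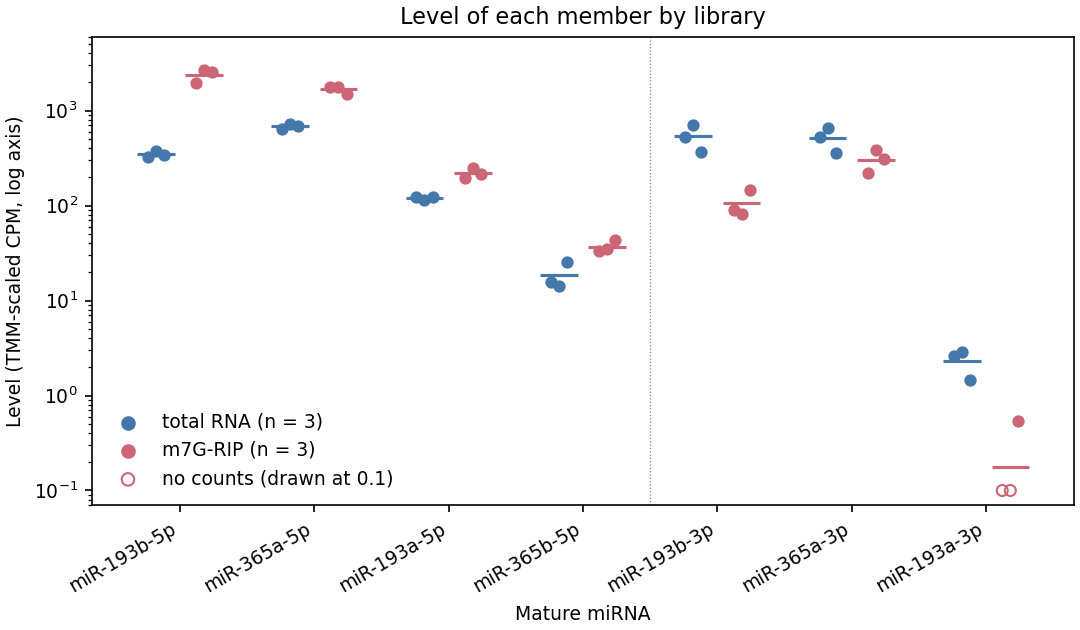
Level of each member in every library, in TMM-scaled CPM on a log axis, for total RNA (blue) and m7G-RIP (red). Horizontal lines are group means (n = 3), and open circles mark libraries without a count, drawn at 0.1. For the 4 members left of the dotted line (5p) every m7G-RIP library lies above every total RNA library, and for miR-193b-3p and miR-193a-3p every m7G-RIP library lies below.

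Among the 5p strands, miR-193b-5p moved furthest. Its level was 326, 372 and 341 CPM in total RNA replicates 1, 2 and 3 and 1964, 2662 and 2549 CPM in m7G-RIP. The lowest m7G-RIP library was far above the highest total RNA library, and the log2 ratio was 2.79 (SE 0.15, edgeR adjusted p 7.73e-07). This placed it at rank 32 by log2 ratio of the 620 miRNAs tested. By level it stood at rank 103 in total RNA and at rank 34 in m7G-RIP.

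miR-365a-5p had the highest mean of the members in total RNA, at 641, 721 and 695 CPM, and reached 1781, 1757 and 1504 CPM in m7G-RIP. The groups did not overlap, and the log2 ratio was 1.29 (SE 0.12, edgeR adjusted p 1.59e-05). miR-193a-5p, the strand known to target TP73, was at 122, 114 and 123 CPM in total RNA and at 196, 250 and 216 CPM in m7G-RIP. These libraries did not overlap either, and the log2 ratio came to 0.88 (edgeR adjusted p 0.00147, SE 0.16).

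miR-365b-5p was the scarcest 5p strand. It was at 15.8, 14.4 and 25.6 CPM in total RNA and at 33.0, 34.8 and 43.1 CPM in m7G-RIP. All 3 m7G-RIP libraries lay above total RNA, with replicate 3 the highest of each group, and the log2 ratio was 0.99 (SE 0.32, edgeR adjusted p 0.0272). The call was lost in 5 of the 6 fits that left out a single library, where the log2 ratio ran from 0.64 to 1.22, and it remained past the threshold without total RNA replicate 3. All 4 of the 5p members had m7G-RIP libraries that lay wholly above total RNA, as did 29.5% of all miRNAs tested.

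Among the 3p strands, miR-193b-3p fell most of those tested. It was at 534, 714 and 364 CPM in total RNA and at 90.7, 80.6 and 147 CPM in m7G-RIP. The groups did not overlap, which in this direction was the case for 36.5% of miRNAs tested, and the log2 ratio was -2.34 (SE 0.30, edgeR adjusted p 0.000181). Thus the 5p and 3p strands of the single hairpin MIR193B passed the threshold on opposite sides.

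miR-365a-3p was at 534, 650 and 360 CPM in total RNA and at 218, 382 and 313 CPM in m7G-RIP. Its libraries overlapped, since m7G-RIP replicate 2 lay above total RNA replicate 3, and the log2 ratio was -0.76 (SE 0.26, edgeR adjusted p 0.0320). With library size alone in place of TMM scaling it was -0.21 (edgeR adjusted p 0.453), and that scaling raised the median of all miRNAs tested from -0.074 to 0.48. The row of miR-365b-3p held the same counts as miR-365a-3p in all 6 libraries, from 742 to 5468. The values therefore stand for the miR-365 3p strand of both hairpins.

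miR-193a-3p, the strand known to target MCL1, was hardly detected. It had 23, 24 and 11 counts in total RNA and 0, 0 and 2 counts in m7G-RIP. Over the pooled libraries its level in m7G-RIP was 0.0832 of that in total RNA, with a 95% exact interval of 0.00984 to 0.314 that covers counting error only. Its log2 ratio was not estimated with the default filter. Total RNA replicate 3 was the lowest of its group for all 3 of the 3p members.

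The ratio of the 2 strands within a library does not depend on library scaling, and was compared across every hairpin name with both arms. For miR-193b, the 5p strand made up 37.9%, 34.3% and 48.4% of the counts of both arms in total RNA. In m7G-RIP it made up 95.6%, 97.1% and 94.6%. The 3p strand thus had more counts in every total RNA library and the 5p strand in every m7G-RIP library.

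The log2 of 5p over 3p rose for miR-193b from -0.58 ± 0.44 to 4.53 ± 0.47 (SD, n = 3), a difference of 5.11 (SE 0.38, limma adjusted p 0.000655), or 34.6-fold. This was the third highest of 140 hairpin names, of which 23.6% had a higher ratio in m7G-RIP at an adjusted p under 0.05. The median difference of the hairpin names that hold no member was 0.36. The exact two-sided permutation p over libraries was 0.1 for each of the 4 member hairpins, the smallest that 3 against 3 allow.

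For miR-365a the 5p strand made up 54.5%, 52.6% and 65.8% of the counts of both arms in total RNA and 89.1%, 82.1% and 82.8% in m7G-RIP. The 5p strand already had more counts in total RNA, and the difference in log2 of 5p over 3p was 2.04 (SE 0.38, limma adjusted p 0.00927). As the 3p reads of both hairpins cannot be separated, the 5p rows of miR-365a and miR-365b were also summed. The 5p share was then 58.3% ± 7.31 in total RNA and 84.9% ± 3.75 in m7G-RIP (SD, n = 3).

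Set against the shared 3p row, miR-365b-5p made up 3.89% ± 2.41 in total RNA and 11.2% ± 2.51 in m7G-RIP (SD, n = 3), a difference in log2 of 5p over 3p of 1.78 (SE 0.52, limma adjusted p 0.0468). The call was lost in 5 of 6 fits that left out a library, with differences from 1.43 to 2.27, and was kept without total RNA replicate 3. Its 3p counts include reads of MIR365A, so this is not the balance of strands of MIR365B.

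For miR-193a the 5p strand dominated in both groups. It made up 97.9%, 97.6% and 98.8% of the counts of both arms in total RNA, and 100%, 100% and 99.8% in m7G-RIP. In m7G-RIP replicates 1 and 2, which had no 3p counts, 3 counts would have been a share of 0.450% and 0.377%. Over pooled libraries the 3p share was 1.91% in total RNA (95% exact interval 1.46 to 2.47) and 0.0880% in m7G-RIP (0.0107 to 0.318). Both intervals cover counting error only, not the spread between libraries. The difference in log2 of 5p over 3p was 4.06 (SE 0.72, limma adjusted p 0.00892) with 0.5 added to each count. With 2 added it was 2.62, so its size rests on the few 3p counts.

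**Figure D2:**
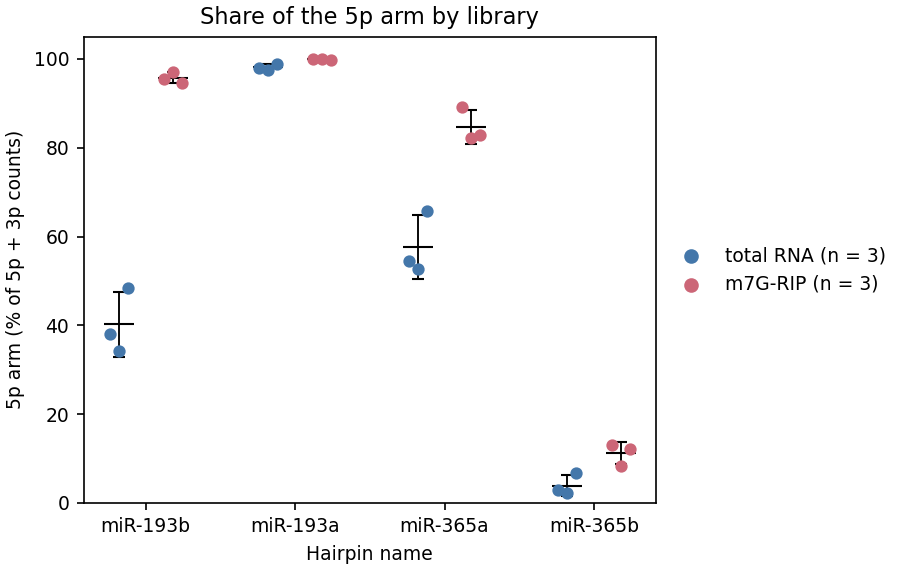
Share of the 5p strand in the counts of both strands of a hairpin name, in percent, for each library of total RNA (blue) and m7G-RIP (red). Black marks are means with SD (n = 3). For miR-193b all total RNA libraries lie under 50% and all m7G-RIP libraries over 94%, and the 3p row of miR-365a and miR-365b is the same.

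**Figure D3:**
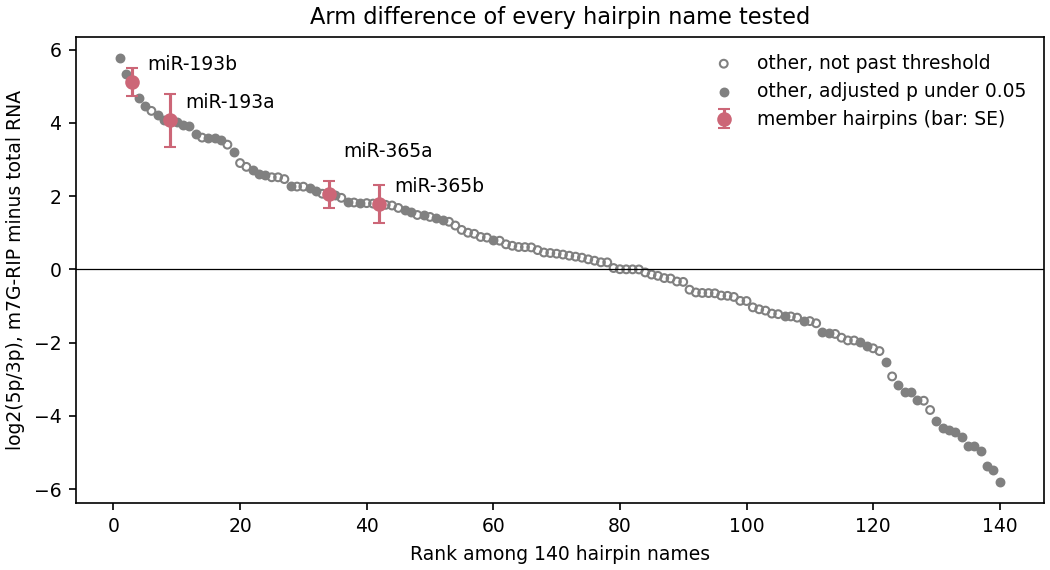
Difference between m7G-RIP and total RNA in log2 of 5p over 3p counts for 140 hairpin names, ranked from the highest. The 4 member hairpins (red, bars are SE) stand at ranks 3, 9, 34 and 42, and filled grey points had an adjusted p under 0.05.

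The paralogs were compared within libraries, strand by strand, as the count of the chromosome 16 copy over that of the chromosome 17 copy. miR-193b-5p exceeded miR-193a-5p by a log2 of 1.42, 1.71 and 1.47 in total RNA and of 3.32, 3.41 and 3.56 in m7G-RIP. These correspond to a mean of 2.89-fold in total RNA and 10.8-fold in m7G-RIP, and the groups did not overlap. The difference was 1.90 (SE 0.11, exact two-sided permutation p = 0.1, adjusted over 3 paralog comparisons 0.3), and 0.1 is the smallest p that 3 against 3 libraries can give.

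In both other paralog pairs the libraries of the groups overlapped. miR-365a-5p exceeded miR-365b-5p by a log2 of 5.25 ± 0.45 in total RNA and of 5.51 ± 0.34 in m7G-RIP (SD, n = 3; difference 0.26, SE 0.32, exact permutation p = 0.5, adjusted 0.5). miR-193b-3p exceeded miR-193a-3p by a log2 of 7.83 ± 0.16 in total RNA and of 8.68 ± 0.80 in m7G-RIP (SD, n = 3; exact permutation p = 0.3, adjusted 0.45). The latter difference of 0.85 became -0.59 with 2 in place of 0.5 added to each count, as the m7G-RIP value rests on 2 reads of miR-193a-3p.

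**Figure D4:**
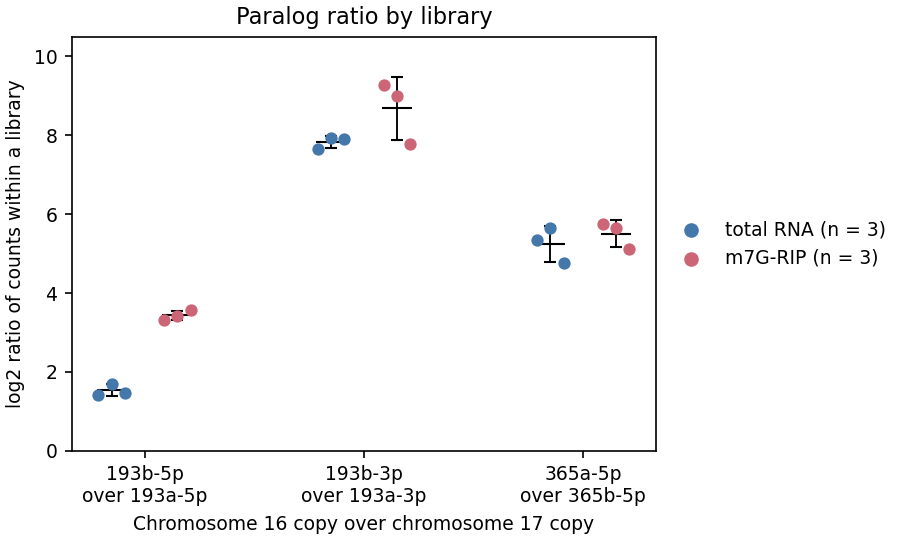
Log2 ratio of the counts of the chromosome 16 copy over the chromosome 17 copy of each strand within a library, for total RNA (blue) and m7G-RIP (red), with means and SD (n = 3, black). For the miR-193 5p strands all m7G-RIP libraries (3.32 to 3.56) lie above all total RNA libraries (1.42 to 1.71), and the other pairs overlap.

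The strands also differed in G content, which the choice of members did not use. G made up 50.0% of the bases of miR-193b-5p, 47.8% of miR-365a-5p, 45.5% of miR-193a-5p and 40.9% of miR-365b-5p. It made up 18.2% of both miR-193 3p strands and 4.55% of the miR-365 3p strand. Among 557 tested miRNAs with a RefSeq sequence, 89.8% of those tested, the median was 27.8%, below every 5p member and above every 3p member. The longest run of G was 5 in miR-365a-5p, 4 in miR-193b-5p and miR-365b-5p and 3 in miR-193a-5p. Neither run length nor G content followed the order of the log2 ratios throughout. Among the 5p strands, G content departed from it only for miR-193a-5p (0.88) and miR-365b-5p (0.99). The tested 3p strands departed from it too. miR-365a-3p, with 4.55% G, had the higher log2 ratio (-0.76), and miR-193b-3p, with 18.2% G, the lower (-2.34).

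A GGG was held by 35.7% of the 557 sequences and by all 4 of the 5p members. GG at bases 2 and 3, which these 4 paralogous strands share, was found in 12.7% of the 557. Of the 199 miRNAs with GGG, these 4 included, 76 were enriched and 31 depleted, with a median log2 ratio of 0.87. Of the 358 without, 59 were enriched and 125 depleted, with a median of -0.55. Across the 557 miRNAs, which share the same 6 libraries and are not independent, G content and log2 ratio had a Pearson r of 0.410 and a Spearman rho of 0.436. The member hairpins carry GGG in the 5p strand alone, as did 32 other hairpin names of the 123 with both sequences. Among these 32 the log2 of 5p over 3p was called higher in m7G-RIP for 12 and lower for 2, with a median difference of 1.78. In the 21 with GGG in the 3p strand alone, 3 were called higher and 4 lower, with a median of -0.34. In the other 66, with GGG in both strands or in neither, 11 were called higher and 13 lower, with a median of 0.098. Whether G content, m7G or another property of the strand accounts for the difference between arms was not tested.

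**Figure D5:**
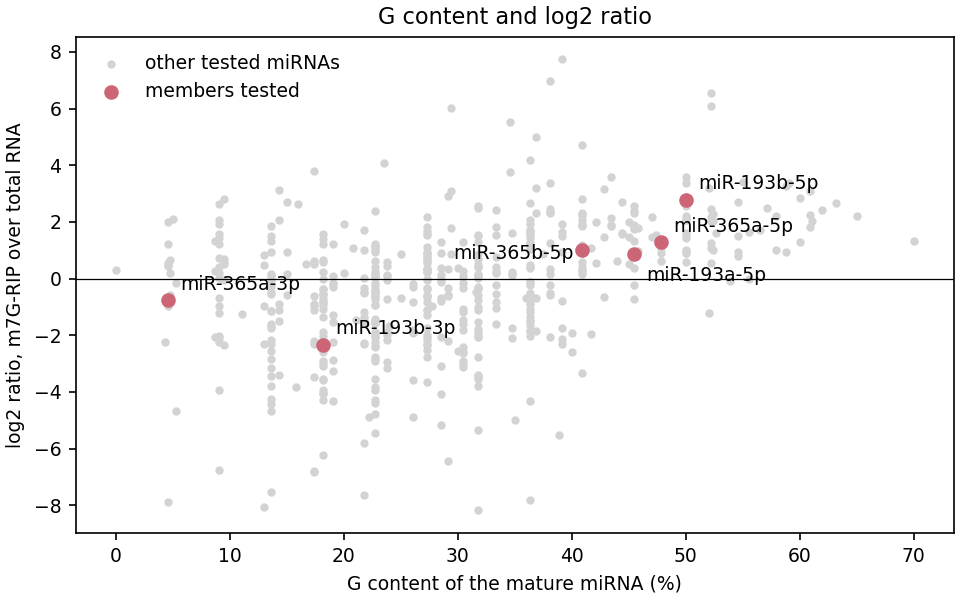
G content of the mature sequence in percent against the log2 ratio of m7G-RIP over total RNA for 557 tested miRNAs (grey), with the 6 tested members in red. The 4 of the 5p strand lie at 40.9% G or more and above 0, and the 3p strands lie at 18.2% G or less and below 0.

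The strands of the neighbouring hairpin MIR4725 were close to absent and were not tested. miR-4725-3p had 11, 15 and 2 counts in total RNA and 20, 1 and 14 in m7G-RIP, and miR-4725-5p had 0, 0 and 9 against 16, 0 and 3. Outside the family, the pattern over the 6 libraries most like that of miR-365a-5p, the 5p member with the highest mean in total RNA, was that of miR-1293 (Pearson r of log2 CPM 0.997), followed by miR-4709-3p (0.996) and miR-342-5p (0.995). The pattern most like that of miR-193b-3p, the 3p member with the highest mean in total RNA, where its libraries overlapped those of miR-365a-3p, was that of miR-129-1-3p (0.989), followed by miR-935 (0.987) and miR-107 (0.984). These coefficients over 6 libraries in 2 groups mainly reflect the difference between groups and are given as a description. Those of miR-4709-3p and miR-129-1-3p also rest on a group with few or no counts. miR-4709-3p was absent from total RNA, and its m7G-RIP mean was 4.54 CPM. For miR-129-1-3p the total RNA mean was 4.57 CPM and the m7G-RIP mean only 0.268 CPM.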

How the data were processed

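Small RNA libraries of 3 total RNA and 3 m7G-RIP samples were analysed. Raw counts of mature miRNAs were deposited. In the published methods, Trimmomatic removed adapters, STAR aligned whole reads against GRCh38, and featureCounts assigned them to miRBase entries. The submitters' processing notes name Bowtie2 instead of STAR. In the files, miR-199a-3p, with 2 loci, held exactly 2 times the counts of miR-199b-3p, which has the same sequence and 1 locus, in the 3 libraries where they had counts (42 against 21, 26 against 13 and 18 against 9). The other 3 libraries had none, so this ratio rests on few reads. The identical miR-365a and miR-365b 3p strands held equal counts in all 6 libraries, 16074 in total under each name. Whether a read with several loci was counted in full at each locus or split between them was not tested. Library totals hold the miR-365 3p row under both names.

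Counts were tested with edgeR 4.0.16 (R 4.3.3; TMM scaling, default filter by group, robust quasi-likelihood F test) over 620 miRNAs, with Benjamini-Hochberg adjustment and a threshold of 0.05. The log2 of 5p over 3p counts, with 0.5 added to each, was tested with limma 3.58.1 over 140 hairpin names, those with both arms past the filter and the member hairpins. Paralog ratios were compared by exact permutation tests. The code was checked on simulated counts. No replicate pair agreed within sampling noise (chi-square per degree of freedom 26.0 to 141), so all were kept apart. Counts are PCR reads without molecular identifiers. The miRNAs named are the members, miR-365b-3p, miRNAs within 10000 bases of a member hairpin, those sharing a member's seed, and for the member of each arm with the highest mean in total RNA the 3 with the most similar pattern (log2 CPM, prior count 2). Members and lists were chosen with earlier results of these data known. Same-numbered libraries were not taken as pairs, since their deviations had correlations of -0.0433, -0.101 and 0.0641.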

Additional observations from a re-analysis of the deposited data

How the results depend on the processing

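Between 3 and 4 members were enriched over 13 alternatives to the edgeR fit (other scalings and filters, DESeq2 1.42.0, limma-voom, fits with a block and fits on 5 libraries). The number depleted was 1 with unscaled library sizes. It was also 1 when the 10 miRNAs with the highest counts were kept out of those sizes. There the log2 ratio of miR-365a-3p was -0.31 (edgeR adjusted p 0.273). The number depleted ran from 2 to 3 when a library was left out, the third being miR-193a-3p without m7G-RIP replicate 3. That library held its only m7G-RIP counts, so this call set total RNA against a group without counts. Without m7G-RIP replicate 1 or 2, miR-193a-3p missed the threshold (edgeR adjusted p 0.0970 and 0.0954). miR-193b-5p stayed between 2.50 and 3.33, miR-365a-5p between 1.03 and 1.85, miR-193a-5p between 0.60 and 1.43 and miR-193b-3p between -2.85 and -1.78, each past the threshold in all 13. miR-365b-5p also lost its call with no filter on low counts (0.72). With the replicate block, 4 members were enriched and 2 depleted, and the arm differences of miR-193a and miR-365b kept their values of 4.06 and 1.78 but missed the threshold (limma adjusted p 0.0503 and 0.0626). The block changed no other call. Leaving out a library gave arm differences from 4.86 to 5.36 for miR-193b, from 3.64 to 4.79 for miR-193a and from 1.78 to 2.29 for miR-365a, all past the threshold, and from 1.43 to 2.27 for miR-365b, of which 5 missed it. Summing both 5p rows over the shared 3p row, an alternative chosen after seeing the data, gave 2.04 for miR-365a. The paralog difference of the miR-193 3p strands changed sign to -0.59 with 2 added to each count, and ran from 0.56 to 1.30 without a library. That of the 5p strands ran from 1.83 to 1.99. Depth limits miR-193a-3p, where 3 counts corresponded to about 0.8 CPM or more in each m7G-RIP library.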
